A study of Mus musculus with 10 samples.

Results

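A set of 10 genes usually read as marks of epithelium or mesothelium were followed through RNA of mouse embryonic fibroblasts. They are the simple keratins Krt7, Krt8, Krt18 and Krt19, the adhesion genes Epcam and Cdh1, the mesothelial genes Msln, Upk3b and Wt1, and the secreted protease inhibitor Wfdc2. They were taken by symbol, and all 10 were found among the 52550 genes of the deposited table. The choice was made with differences between the sexes in these libraries already known, so the values below for females against males are a description and carry no test. Embryonic fibroblasts are primary cells grown out of minced embryos, so a culture can hold cells from several tissues. The cells came from C57BL/6 embryos at embryonic day 14 (E14) and had passage number 3 (P3), and the labels name no transgene and no treatment for either sex. Total RNA depleted of ribosomal RNA was sequenced in 5 libraries from male cells and 5 from female cells. Nothing in the labels says that libraries of a sex were made from different embryos or separate dishes, so the p-values cover the spread among these 10 libraries alone, and that spread may be technical.

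Keratins form the intermediate filaments of epithelial cells, and each filament is built from pairs of 1 type I and 1 type II chain. Krt7 and Krt8 are type II, Krt18 and Krt19 are type I, and the pair Krt8 and Krt18 is the first to appear in the embryo. Mesothelium is the sheet of cells that lines the body cavities and covers the organs in them, and it makes simple keratins along with genes of the mesenchyme. Cultured fibroblasts are defined by vimentin and collagens, and their repressors of the Snai, Zeb and Twist families act on epithelial adhesion genes such as Cdh1.

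The members lie on 6 chromosomes, and positions are in mm10, counted from 1. On chromosome 15, Krt7 spans 101411043 to 101430313 on the plus strand, Krt8 spans 101996711 to 102004342 on the minus strand and Krt18 spans 102028216 to 102032026 on the plus strand. Krt8 and Krt18 are neighbours whose starts face each other. Krt19 spans 100140810 to 100148665 of chromosome 11 on the minus strand. Chromosome 17 holds Epcam at 87635979 to 87651106 on the plus strand and Msln at 25748614 to 25754327 on the minus strand. Cdh1 spans 106603351 to 106670246 of chromosome 8, Upk3b spans 136038496 to 136046487 of chromosome 5, and both are on the plus strand. Chromosome 2 holds Wt1 at 105126529 to 105173616 and Wfdc2 at 164562413 to 164568510, both on the plus strand. Other gene models overlap 2 members on the opposite strand, Gm671 at Krt7 and Gm36026 at the start of Krt8. Whether the counting used strand is not given in the sources used here, so reads of these overlapping genes may not have been kept apart.

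Promoter sequence from RefSeq (GRCm38.p6) was matched to 6 of the 10 members by symbol. Stretches of 110 bases are shown for 5 of them, namely for the keratins whose levels ran together or apart, for Epcam as the near-silent adhesion gene and for Wfdc2. Each is the last stretch of that length before the gene's RefSeq start that held no annotated untranslated region, written 5′ to 3′ on the gene's own strand. Capitals mark CACCTG, the E-box that Snai and Zeb proteins are known to bind, and GGGCGG, the GC box, each searched on both strands, so that CAGGTG and CCGCCC are their other strands.
Krt7 (chr15:101412292-101412401, plus strand): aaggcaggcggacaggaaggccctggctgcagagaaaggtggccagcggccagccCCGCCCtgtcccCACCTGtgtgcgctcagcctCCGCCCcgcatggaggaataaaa
Krt8 (chr15:102004483-102004592, minus strand): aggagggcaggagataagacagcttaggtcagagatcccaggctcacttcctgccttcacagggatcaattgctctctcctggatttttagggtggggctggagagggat
Krt18 (chr15:102028070-102028179, plus strand): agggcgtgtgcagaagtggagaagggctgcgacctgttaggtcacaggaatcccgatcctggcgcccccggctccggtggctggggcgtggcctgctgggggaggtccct
Epcam (chr17:87635869-87635978, plus strand): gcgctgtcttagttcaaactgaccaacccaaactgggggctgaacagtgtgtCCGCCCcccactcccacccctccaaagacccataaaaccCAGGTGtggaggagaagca
Wfdc2 (chr2:164562469-164562578, plus strand): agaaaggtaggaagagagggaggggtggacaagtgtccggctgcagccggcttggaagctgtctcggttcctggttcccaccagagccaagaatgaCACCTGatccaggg
The E-box letters were in the windows of Krt7, Epcam and Wfdc2, and the GC box was in those of Krt7 and Epcam. The window of Upk3b, which is not shown, held neither, as did those of Krt8 and Krt18. Over 32851 windows of the same length that end directly at a RefSeq start, 7.71% held the E-box and 25.7% held the GC box. The windows of Krt8, Wfdc2 and Krt18 end 140, 136 and 36 bases before their start. These shares are thus for windows placed differently from those 3. The windows of Krt7 and Wfdc2 lie inside the gene spans given above, and that of Krt7 also overlaps Gm671. A match is a run of letters and not a bound site.

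Depth ranged from 35861359 to 45859721 uniquely placed gene reads in female libraries and from 30662616 to 40664001 in male libraries. The highest of 8 listed fibroblast genes were Vim, Col1a1, Fn1 and Thy1. Vim, an intermediate filament gene of fibroblasts, was at 2711 exon reads per kilobase (RPKM, scaled by each library's unique exon reads). Col1a1 was at 1408, Fn1 at 1144 and Thy1 at 341 (means, n = 10). The lowest of the 8 was Pdgfra at 7.90. On that scale, which allows comparison between genes, Krt19 was at 50.8 ± 12.2 (SD, n = 10) and was above 95.04% of the 16602 genes that passed the filter on low counts. Markers of other cell types were also measured. Macrophage genes summed to 36.5 to 92.3 CPM in females and 43.7 to 68.2 in males, and endothelial genes to 24.7 to 38.4 and 25.5 to 47.3. Most of the macrophage sum was Lyz2, with means of 41.2 CPM in females and 36.5 in males, while Ptprc was at 2.11 and 1.82. Most of the endothelial sum was Kdr, at 21.9 and 28.2, while Cdh5 was at 0.731 and 0.591. Trophoblast genes summed to at most 1.37 CPM in a library. Endoderm, lung and liver genes summed to 3.6 to 11.2 CPM, with Alb (2.63 RPKM) in front. CPM here is edgeR's scaled count of unique gene reads, relative to library size after TMM scaling.

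The order of the members per kilobase put the keratins Krt19 and Krt18 first and the nearly silent adhesion genes last. Krt19 led and did not overlap Krt18, which followed at 8.41 ± 1.43. Msln, a membrane-anchored surface protein of mesothelium, came next at 5.38 ± 2.31 and lay below Krt18 in 9 of 10 libraries. A middle group followed with Upk3b at 1.53 ± 0.53, Krt7 at 1.09 ± 0.53, Wfdc2 at 0.831 ± 0.850, Krt8 at 0.726 ± 0.386 and Wt1 at 0.654 ± 0.154. Within that middle group neighbours did not separate: Upk3b was above Krt7 in 7 libraries, Krt7 above Wfdc2 in 8, and Krt8 and Wt1 each led in 5. Wfdc2 was above Krt8 in the 5 male libraries and below it in the 5 female libraries, so its place in this order is a mean of 1.46 ± 0.80 in males and 0.207 ± 0.119 in females (SD, n = 5). Epcam at 0.0999 ± 0.0792 and Cdh1 at 0.0374 ± 0.0261 came last, and Wt1 was above Epcam in all 10 libraries. The exon lengths of Krt7 (7055 bases, 6 transcripts) and Wt1 (6195 bases, 9 transcripts) join several transcripts, which lowers their levels on this scale. Those of Wfdc2 (5 transcripts), Krt19 (3) and Cdh1 (3) are joined as well. In bulk RNA, fewer cells that make a gene and less of its RNA per cell cannot be told apart.

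**Figure D1:**
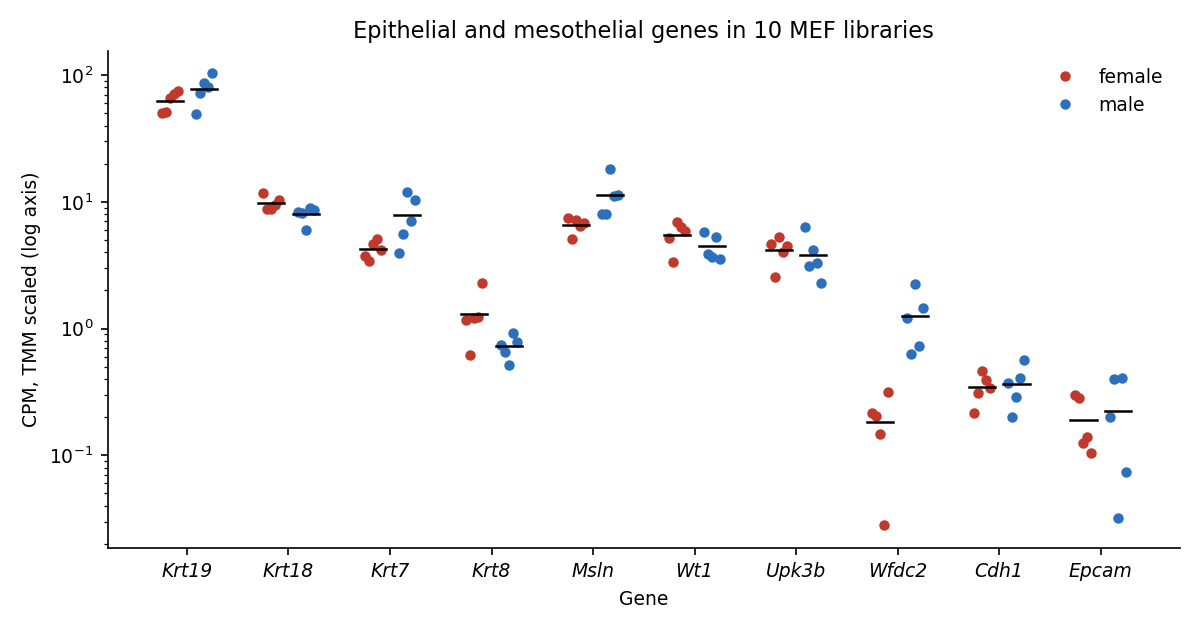
CPM of the 10 members in each library, on a log axis, with female and male libraries as points and the mean of each sex as a line. Krt19 is the most abundant, from 49.5 to 103 CPM, and Msln and Wfdc2 are the members whose sexes do not overlap.

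Krt19 and Krt7 had higher means in males, and Krt8 and Krt18 in females. Krt19, the type I chain of ducts and mesothelium, was at 49.5, 72.0, 86.4, 80.6 and 103 CPM in male replicates 1 to 5 and at 50.3, 51.1, 65.6, 71.4 and 74.6 CPM in female replicates 1 to 5. The sexes overlapped, with male replicate 5 highest and male replicate 1 lowest. Krt7, a type II chain of ducts and mesothelium, was at 3.92, 5.61, 12, 7.12 and 10.4 CPM in the males and 3.76, 3.41, 4.67, 5.11 and 4.16 in the females. Of the males, 4 were above every female, and male replicate 1 lay inside the female range. The male mean of Krt7 was 7.81 ± 3.35 against 4.22 ± 0.68 in females (SD, n = 5), a log2 fold change, female minus male, of -0.89 ± 0.27 (SE).

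Krt8, the type II partner of Krt18, was at 0.739, 0.652, 0.512, 0.926 and 0.784 CPM in the males and 1.16, 0.616, 1.22, 1.23 and 2.28 in the females. Female replicate 5 was the highest, and female replicate 2 was inside the male range. Only 61.2% of the reads counted for Krt8 were uniquely placed, against 96.5% or more for each of the other 9 members, so its level rests on fewer and less certain reads (16 to 87 unique reads per library). Krt18 was at 8.30, 8.22, 6.02, 8.97 and 8.55 CPM in the males and 11.7, 8.75, 8.85, 9.46 and 10.4 in the females. The sexes overlapped, with male replicate 3 the lowest. The log2 fold changes, female minus male, were 0.84 ± 0.30 for Krt8 and 0.29 ± 0.12 for Krt18 (SE).

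The counted RNA of keratin partners was far from equal. Per kilobase, Krt18 was 13.3 ± 4.0 times Krt8 (SD, n = 10), from 5.89 to 20.3 over the libraries. These are unique reads, of which Krt8 kept 61.2% and Krt18 99.1%, so more of the reads assigned to Krt8 are missing from the ratio, which raises it. Type I chains (Krt18 and Krt19) summed to 33.9 ± 5.5 times the type II chains (Krt7 and Krt8), with 34.0 ± 6.9 in females and 33.7 ± 4.5 in males (n = 5). The joined exon length of Krt7 (7055 bases, against 1805 for Krt8) raises this ratio and lowers that of Krt7 to Krt8. The balance between the type II chains differed more between libraries: Krt7 was 0.956 ± 0.360 times Krt8 in females and 2.87 ± 1.67 times in males, and the lowest male value (1.38) lay under the highest female value (1.47). Krt20, a type I simple keratin of gut and bladder that is no member, was at 6.20 ± 0.70 RPKM, between Krt18 and Msln. Its log2 fold change of 0.03 did not pass the test.

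Epcam and Cdh1, the surface adhesion molecules that define most epithelia, were close to the limit of counting. Epcam had 78 reads over the 10 libraries, from 1 to 16, and did not pass the filter on low counts. It was at 0.199, 0.401, 0.0320, 0.405 and 0.0735 CPM in the males and 0.298, 0.282, 0.126, 0.140 and 0.105 in the females, with the sexes overlapping throughout. Cdh1 had 136 reads, from 8 to 23, and 64.0% of them lay in introns. The mean of Cdh1 was 0.344 ± 0.092 CPM over the female libraries and 0.365 ± 0.136 over the male libraries (SD, n = 5), and both sexes spread over the same range. The spread of Cdh1 within a sex was 32.4% of the mean, where counting alone gives 27.1%. Krt19 spread by 21.9%, where counting alone gives 1.94%. Krt19 was thus measured with little counting error, while the log2 fold change of Cdh1, -0.08 ± 0.32 (SE), leaves room for moderate differences in either direction.

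Of the mesothelial members, Msln alone had sexes that did not overlap. Msln was at 8.04, 7.97, 18.0, 11.1 and 11.3 CPM in the males and 7.50, 5.05, 7.17, 6.48 and 6.81 in the females. All 5 males were above all 5 females, by a narrow gap between male replicate 2 and female replicate 1, and male replicate 3 stood highest. Its mean was 11.3 ± 4.1 in males and 6.60 ± 0.95 in females (SD, n = 5), a log2 fold change of -0.77 ± 0.21 (SE). Upk3b, a uroplakin made by mesothelium, was at 6.31, 3.13, 4.16, 3.27 and 2.30 CPM in the males and 4.68, 2.57, 5.24, 4.01 and 4.48 in the females. The male range enclosed the female range, and male replicate 1 was highest. Wt1, a zinc finger transcription factor of mesothelium, kidney and gonad, was at 5.83, 3.86, 3.68, 5.30 and 3.55 CPM in the males and 5.15, 3.36, 6.90, 6.34 and 5.84 in the females, again with overlap.

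After Cdh1, Wt1 had the largest share of intron reads among the members. Introns held 40.2% of its gene reads (763 of 1900), with 31.3% to 45.7% in female libraries and 30.6% to 51.7% in male libraries. Of its exon reads, 19.6% crossed a splice junction, close to the 20.4% of Cdh1. Krt19 had 1.26% of its reads in introns and 28.3% of its exon reads across a junction. Msln had 44.5% across a junction and 6.22% in introns. Upk3b had 1.45% in introns, yet only 12.1% of its exon reads crossed a junction.

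**Figure D2:**
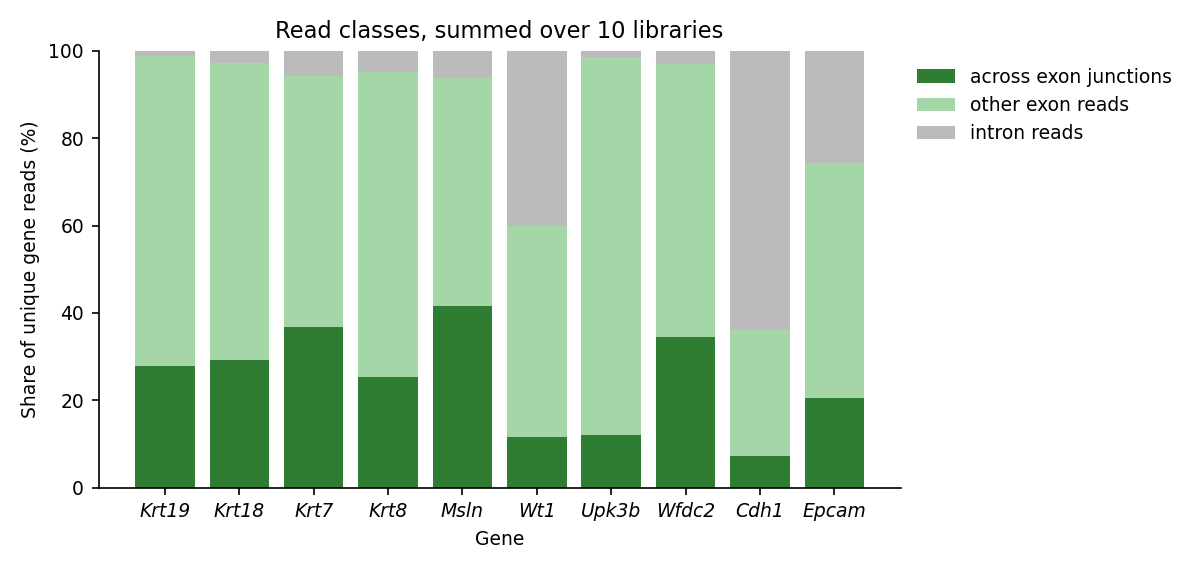
Unique gene reads of each member summed over the 10 libraries, as stacked bars in percent: reads across exon junctions, other exon reads and intron reads. Cdh1 (64.0%), Wt1 (40.2%) and Epcam (25.6%) have the largest intron shares, and the other members are at 6.22% or less.

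Wfdc2, a secreted protein with WAP domains that is made by ducts and by the female and male reproductive tract, was the member with the widest gap between the sexes. It had 43, 25, 70, 25 and 59 reads in male replicates 1 to 5 and 8, 8, 7, 1 and 12 in female replicates 1 to 5. These gave 1.22, 0.627, 2.24, 0.723 and 1.45 CPM in the males and 0.217, 0.205, 0.147, 0.0281 and 0.314 CPM in the females. Every male was above every female, and the lowest female, replicate 4, rests on 1 read. The male mean was 6.87-fold the female mean, on 222 against 36 reads in all. Its reads were spliced RNA, with 3.10% in introns and 35.6% of exon reads across a junction. The other 23 genes listed for the WAP family gave no like signal: 18 of them had a mean under 0.1 CPM, 5 had no read, and only Slpi and Wfikkn2 passed the filter, with no call for either. Per kilobase, Slpi was at 0.190, Wfdc17 at 0.139 and Wfikkn2 at 0.116.

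Of the 9 members that passed the filter, edgeR's quasi-likelihood fit called 1, Wfdc2, where it called 0.0904% of all genes tested (15 of 16602) and 0.0482% as higher in males. Sexes did not overlap for Msln and Wfdc2, males above females in both, and 0.602% of all genes tested had every male above every female. The reverse, which no member showed, held for 0.373%, and either direction for 0.976%. These counts describe genes that were chosen with this contrast in view, and nothing is read from them. The Wfdc2 call was lost without male replicate 3 or 5, or without female replicate 1, 2 or 3. Of the others, Krt7, Msln, Krt19 and Cdh1 had higher means in males and Krt8, Krt18, Upk3b and Wt1 in females, with log2 fold changes smaller than their errors for Cdh1 and for Upk3b (0.14 ± 0.25, SE).

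Covariation across the 10 libraries was taken as Pearson's r of log2 CPM for 36 pairs of 9 members, with permutation p-values adjusted by Benjamini-Hochberg over the 36. Points of 1 library share its depth and preparation. Krt7 went with Krt19 at r = 0.87 (permutation p = 0.00102, adjusted 0.0184). Spearman's rho was 0.87 (permutation p = 0.0023, adjusted 0.0414), and r was 0.83 without male replicates 3 and 5. Centred within each sex, r was 0.85 with an adjusted permutation p of 0.147. The pair therefore passed over all libraries and did not pass within the sexes, where r was nearly as high. Leaving out female replicate 1, 2 or 3 raised the adjusted permutation p to between 0.0542 and 0.0805.

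Krt7 also went with Msln, at r = 0.90 (permutation p = 0.00048, adjusted 0.0173). Spearman's rho was 0.73 (permutation p = 0.0197, adjusted 0.142), so by ranks the pair did not pass. Without male replicates 3 and 5 r was 0.76, and centred within each sex it was 0.81 (adjusted permutation p = 0.316). With male replicate 3 left out the adjusted permutation p was 0.0692, and with female replicate 2 left out it was 0.0805, both past the threshold. As a background, 0.0783% of tested genes were as close to Msln as Krt7 was, and 0.392% as close to Krt7 as Msln was. For Krt7 and Krt19 the shares were 0.982% from Krt19 and 0.759% from Krt7.

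The other pairs among keratins and mesothelial genes did not pass. Krt8 with Krt18, the classical filament partners, had r = 0.74 (permutation p = 0.0197, adjusted 0.118), rho = 0.83 (permutation p = 0.00464, adjusted 0.0557) and r = 0.63 without female replicate 5 and male replicate 3. Upk3b with Wt1 had r = 0.75 (permutation p = 0.0142, adjusted 0.118), rho = 0.68 (permutation p = 0.0349, adjusted 0.209) and r = 0.52 without male replicate 5 and female replicate 2. Msln showed neither: with Upk3b its r was -0.05 (permutation p = 0.886, adjusted 0.938) and with Wt1 -0.30 (permutation p = 0.409, adjusted 0.595). Krt8 with Wt1 had r = 0.72 (permutation p = 0.0172, adjusted 0.118) and rho = 0.78 (permutation p = 0.0105, adjusted 0.0949). Its r was 0.79 without female replicate 5 and male replicate 3, and 0.65 centred within each sex (adjusted permutation p = 0.657). Krt7 with Krt8, both type II chains, had r = -0.41 (permutation p = 0.235, adjusted 0.445), which became 0.01 after centring within each sex. The differences between these correlations were not tested.

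For Wfdc2 the libraries fall into a male and a female cluster, so no pooled r is given for its pairs. By Spearman's ranks over all libraries its pair with Msln passed (adjusted permutation p = 0.0299). Both genes have every male above every female, so ranks that ignore sex are bound to run together, and nothing is read from this pass. Centred within each sex, its r was 0.44 with Msln (adjusted permutation p = 0.907) and -0.35 with Wt1. It was 0.18 with Krt7 and 0.00 with Krt19. Within the sexes no pair with Wfdc2 passed, and its low counts in females limit what could be seen.

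**Figure D3:**
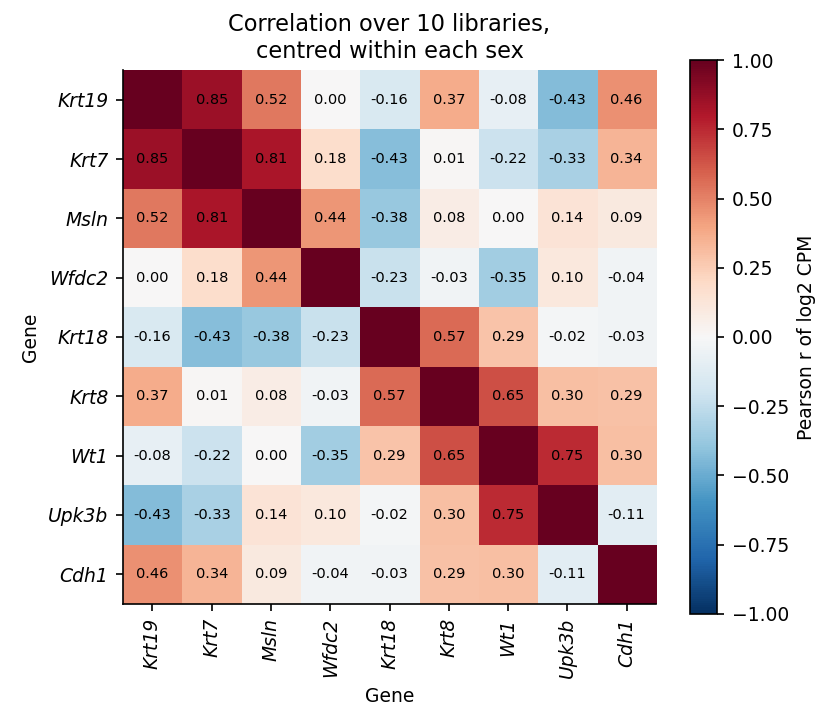
Pearson's r of log2 CPM over the 10 libraries, centred within each sex, for each pair of the 9 members that passed the filter, as color and as a printed value. Krt7 is high with Krt19 (0.85) and Msln (0.81), Wt1 is high with Upk3b (0.75), and Msln is near 0 with Wt1.

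**Figure D4:**
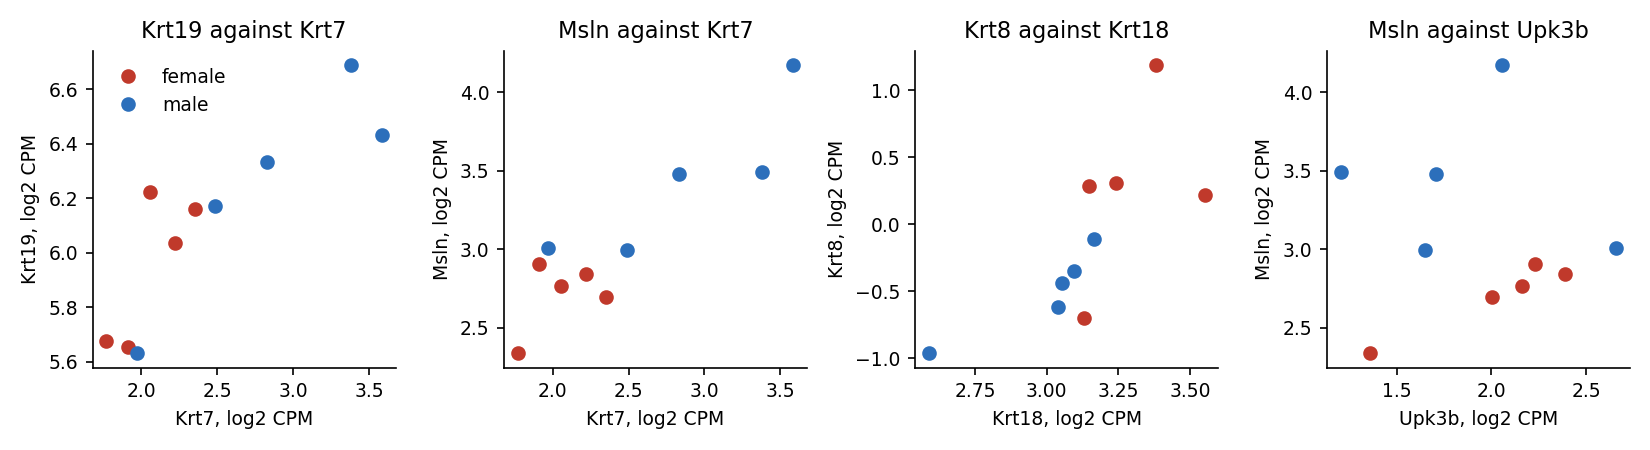
Log2 CPM of 4 pairs of members, with each point a library, female and male. Krt19 and Msln rise with Krt7 (r = 0.87 and 0.90), Krt8 leans with Krt18 (r = 0.74), and Msln shows no relation to Upk3b (r = -0.05).

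The genes most like a member over the 10 libraries were listed for Krt8, Msln and Wfdc2, among 12458 genes with a mean of at least 1 CPM. Closest to Krt8 were Ankrd1 (r = 0.96), Alx4 (0.96), Pik3ap1 (0.95), Dusp9 (0.95) and Cd68 (0.94). Closest to Msln were Six2 (0.95), Spint2 (0.94), Enpp2 (0.94), Zfp729b (0.94) and Myo18a (0.93). The same genes had r of 0.84 to 0.96 with Krt8 or Msln after centring within each sex. By the same ranking over all libraries A4galt, Kdm5d, Eif2s3y, Prdm16 and Gne were closest to Wfdc2, and Kdm5d and Eif2s3y lie on the Y chromosome. Centred within each sex, their r with Wfdc2 was 0.57, 0.34, 0.36, 0.66 and 0.53. These are the highest of many values and carry no test.

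Other genes of the same roles were read from 13 lists with 147 genes that are no members, 85 of which passed the filter. The edgeR fit called 0 of the 85, with 15 at an unadjusted p under 0.05, where 5.55% of all genes tested were under it. The lists were chosen with earlier results of these data known, so nothing is read from that count. DESeq2 called Anxa8, Ivl and Spint2, edgeR with no filter called Ivl, and limma-voom called 0. Of the 85, 45 had a positive and 40 a negative log2 fold change, female minus male, with a median of 0.03 against 0.005 over all genes tested.

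Some listed junction genes were far above Epcam and Cdh1, and others were as low. In RPKM, Jup (plakoglobin) was at 36.4 ± 2.2, the cadherin Cdh3 at 13.9 ± 2.6, the plakophilin Pkp2 at 9.11 ± 1.16 and the desmosome linker Dsp at 2.09 ± 0.79 (SD, n = 10). The desmosomal genes Pkp3 (0.104) and Evpl (0.0947) were near Epcam, and Dsg2 (0.0130) was below Cdh1. Of the 24 adhesion and junction genes that are no members, 16 passed the filter, 0 were called, 12 had a negative and 4 a positive log2 fold change, and their median was -0.20. Spint2, a membrane protease inhibitor of epithelia, had a mean of 3.58 ± 0.74 CPM over the male libraries and 2.26 ± 0.17 over the female libraries (SD, n = 5), with an adjusted p of 0.298 by edgeR.

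Among 11 regulators of epithelial genes, 8 passed the filter and 0 were called, with Klf5 at 14.3 and Esrp2 at 1.29 RPKM, while Grhl3 and Grhl1 were at 0.0748 and 0.0451. The 6 repressors were all measured, 0 were called, and 3 lay on each side. Snai2 was at 24.7, Snai1 at 23.2, Twist1 at 22.8 and Twist2 at 14.4 on that scale, each above Krt18 in mean level. Of 12 genes of stratified epithelium and skin, 4 passed the filter, 0 were called, and all 4 had a negative log2 fold change with a median of -0.60. These were Perp (9.61 per kilobase), Sfn (8.09), Ivl (2.04) and Krt10 (0.394), while the basal keratins Krt5 and Krt14 had 23 and 64 reads over all libraries.

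Most listed mesothelial genes had log2 fold changes of the opposite sign to Msln, without passing the test. Of 20 that are no members, 18 passed the filter, 0 were called, and 14 had a positive and 4 a negative log2 fold change, with a median of 0.26. Podoplanin (Pdpn) was at 126 ± 15 per kilobase, the annexin Anxa8 at 25.1 ± 10.3 and the uroplakin Upk1b at 3.27 ± 0.86. Anxa8 had a log2 fold change of -0.78 ± 0.23 (SE, adjusted p = 0.628 by edgeR), close to that of Msln, and Upk1b had 0.25 ± 0.19 (SE). Of 11 kidney and gonad genes, 8 passed the filter, 0 were called, and 6 had a negative log2 fold change, with Osr1 at 13.7, Emx2 at 9.65, Six2 at 2.74 and Lhx9 at 2.19 per kilobase.

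The listed genes were also set against Krt7, Krt8, Msln, Upk3b and Wt1 over the 10 libraries, a comparison added after the values had been seen. Of 265 pairs over 53 genes, 10 passed at an adjusted permutation p under 0.05 by Pearson's r, and 0 did by Spearman's rho, whose smallest adjusted p was 0.0702. Spint2 went with Msln at r = 0.94 (rho 0.92, permutation p = 9e-05, adjusted 0.0124). With Krt7 went Anxa8 (r = 0.92, rho 0.82, adjusted permutation p = 0.0327), the desmosome gene Ppl (0.87) and Perp (0.87), and Bnc1, a mesothelial zinc finger gene, ran against it at -0.87. With Upk3b went Lrrn4 (r = 0.85, rho 0.88, adjusted permutation p = 0.0124) and Upk1b (0.89, rho 0.92, adjusted 0.0278). Without the 2 libraries farthest from the median of the member, r was 0.93 for Spint2 with Msln, 0.89 for Lrrn4 with Upk3b and 0.77 for Upk1b with Upk3b. For the genes named with Krt7 it moved further, to 0.72 for Anxa8, 0.58 for Ppl, 0.62 for Perp and -0.68 for Bnc1. The permutations ignored sex, so a sex difference shared by both genes can add to these passes. Centred within each sex, r was 0.89 for Spint2 with Msln, and 0.88 for Lrrn4 and 0.90 for Upk1b with Upk3b. With Krt7 it was 0.85 for Anxa8, 0.77 for Ppl, 0.80 for Perp and -0.81 for Bnc1. No p-value was taken for these centred values.

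The 18 mesothelial genes were counted by the sign of r with each member, and the differences between members were not tested. With Wt1, 14 of 18 were positive (median 0.46), with Krt8 13 (median 0.31), with Upk3b 12 (median 0.32), and with Krt7 and Msln 5 each (medians -0.31 and -0.26). Centred within each sex, the medians were 0.45 for Wt1, 0.10 for Krt8, 0.33 for Upk3b, -0.28 for Krt7 and -0.05 for Msln. Over all genes tested, the positive share was 48.3% for Wt1, 50.4% for Krt8, 46.3% for Upk3b, 51.2% for Krt7 and 50.3% for Msln. Of the genes listed for stratified epithelium, 4 passed the filter (Perp, Sfn, Ivl and Krt10), and the basal keratins Krt5 and Krt14 did not. All 4 were positive with Krt7 (median 0.77, with Krt10 at 0.05) and with Msln (0.67) and negative with Krt8 (-0.66). Centred within each sex, these medians were 0.53, 0.23 and -0.39.

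**Figure D5:**
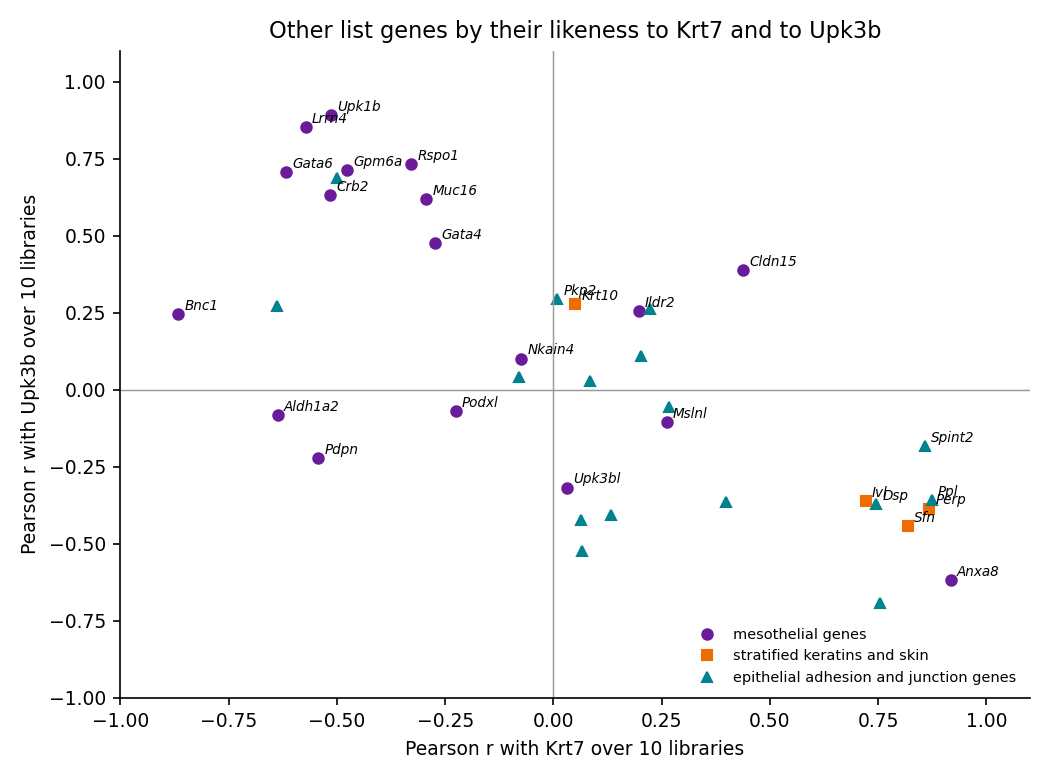
Pearson's r over the 10 libraries of listed genes that are no members, with Krt7 on the horizontal and Upk3b on the vertical axis, each point a gene and its list shown by color and shape. Anxa8, Ppl and Perp lie at the lower right, high with Krt7, and Upk1b and Lrrn4 at the upper left, high with Upk3b.

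Of the macrophage genes, 2 went with Krt8 past the threshold. All 6 were positive with it, with a median r of 0.79, and Cd68 (r = 0.94, rho 0.87, adjusted permutation p = 0.0124) and Adgre1 (0.87, rho 0.88, adjusted 0.0405) passed. All 6 were also positive with Wt1 (median 0.45) and with Upk3b (median 0.23), and 0 passed. Adgre1 with Wt1 had r = 0.82 (rho 0.84, adjusted permutation p = 0.0754). With Msln 4 were positive, and with Krt7 3. The summed level of the macrophage genes, most of it Lyz2, was highest in female replicate 5, at 92.3 CPM, and lowest in female replicate 2, at 36.5 CPM. These libraries were also highest and lowest among the females for Krt8. Among the males the match did not hold: the sum was highest in replicate 5 (68.2 CPM) and lowest in replicate 2 (43.7 CPM), while Krt8 was highest in replicate 4 and lowest in replicate 3. The macrophage list had 6 positive log2 fold changes of 6, a median of 0.21 and 0 calls. Pkp2 also went with Krt8, at r = 0.87 (rho 0.89, adjusted permutation p = 0.0327). Centred within each sex, r with Krt8 was 0.92 for Cd68, 0.78 for Adgre1 and 0.88 for Pkp2, with no p-value taken. The part of macrophage RNA in the level of Krt8 was not tested.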

How the data were processed

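RNA of 10 libraries was analysed. The authors deposited 1 table of whole-number read counts per gene and library, not normalized, with unique and total reads and with gene, exon, intron and junction reads in separate columns, per the file headers. Per the submitters' processing notes, mm10 was the genome build. The aligner, trimming and counting rules stand as not given in the sources used here. A further 100 columns with values of single libraries were left unused. The members and gene lists were chosen with earlier results of these data known.

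Unique gene counts as deposited were tested with edgeR 4.0.16 (R 4.3.3; TMM, filterByExpr minimum count 10, robust quasi-likelihood fit, sex as the only term, two-sided), with Benjamini-Hochberg adjustment over 16602 genes and calls at 0.05. Total counts per library ran from 30662616 to 45859721 unique gene reads, and read numbers limit the precision of low genes. Levels between genes used unique exon reads per kilobase. Correlations used log2 CPM (prior count 2) with 100000 permutations. The tests were checked on simulated data. Named genes were the members, the 4 highest genes of each list and the 5 genes most like Krt8, Msln and Wfdc2 (r over 10 libraries, mean of at least 1 CPM, no predicted gene models). Other genes were named after their values were seen. Alternatives were DESeq2 1.42.0, limma-voom 3.58.1, other scaling, filters and read classes, a replicate block, and leaving out each library. GENCODE M21 held 52403 of the table's identifiers, 95.2% with the same start and end.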

Additional observations from a re-analysis of the deposited data

Results flagged for a closer look

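Krt18 in male replicate 3 was at 6.02 CPM, far below the other 4 males at 8.22 to 8.97 CPM, and the gap was above Dixon's critical value of 0.71 for 5 samples. This was 1 of 20 groups examined, members in each sex, and chance gives about 1 in 20. The same library was the highest of all for Krt7 (12 CPM), Msln (18.0 CPM) and Wfdc2 (2.24 CPM) and the lowest for Krt8 (0.512 CPM).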

How the results depend on the processing

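Against 15 genes called between the sexes, edgeR without a filter called 30, DESeq2 72 and edgeR with a replicate block 43, and leaving out 1 library gave 12 to 36, with 36 without male replicate 1. Of the members 1 was called: a filter of at least 1 CPM in 5 libraries, which removes Wfdc2, gave 0, limma-voom gave 0, DESeq2 gave 2 (Msln and Wfdc2), and leaving out 1 library gave 0 to 1. The members were chosen with this contrast known, so their calls are a description only. Of the listed genes 0 were called: no filter gave 1, DESeq2 3, and leaving out 1 library 0 to 0. Of the pairs of members 2 passed: centring within each sex gave 0, unique exon reads 4, and leaving out 1 library 0 to 3, with 0 without female replicate 2. The pairs added with unique exon reads were Krt8 with Wt1 and Msln with Wfdc2. The cause of these shifts was not tested, except that the stricter filter tests fewer genes. The log2 fold change of Wfdc2 stayed between -3.02 and -2.44 over the settings, Krt7 between -1.05 and -0.68, Msln between -0.87 and -0.54 and Krt8 between 0.55 and 1.02, while those of Cdh1 (-0.24 to 0.14) and Upk3b (-0.00 to 0.39) crossed 0. Krt8 with Krt18 passed without female replicate 5 (adjusted p = 0.0491).

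The labels do not say what libraries with the same replicate number share. Their deviations correlated at -0.03 to 0.40. For numbers 1 (0.16) and 5 (0.40) both libraries correlated best with their own number, and for numbers 2, 3 and 4 neither did. Whether same-numbered libraries share a source or a preparation was not tested. With the replicate block edgeR called 43 genes, 8 higher in females and 35 in males, with Wfdc2 among them. Wfdc2 was chosen with this contrast known, so nothing is read from its call. Centred by replicate number, r was 0.95 for Krt7 with Msln, 0.95 for Krt7 with Krt19 and 0.86 for Krt8 with Krt18. Each number holds a male and a female library, so this centring keeps the difference between the sexes. A sex difference shared by both genes raises such an r, which therefore cannot be set beside the other r values and carries no test.

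Depth limits Epcam (1 to 16 reads per library), Cdh1 (8 to 23) and Wfdc2 in females (1 to 12).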
